A study of Mus musculus with 8 samples.

Results

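The insulin genes Ins1 and Ins2 and the amylin gene Iapp were followed in pancreatic islets of Wfs1KO and WT mice. The 3 genes were taken by symbol from a table of exon counts for 24537 genes, and all 3 were among the 15733 genes that passed the filter on low counts. Polyadenylated RNA had been sequenced from islets of 12-week-old male mice that lacked Wfs1 (Wfs1KO, n = 4) or carried it (WT, n = 4), with no treatment in either group. Wolframin, the product of Wfs1, sits in the membrane of the endoplasmic reticulum (ER), and its loss causes Wolfram syndrome in people. The allele and the strain are not given in the sources used here. The labels call the samples replicates without saying that each came from separate animals, so p-values measure the spread between these samples.

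Beta cells of the islet make insulin as preproinsulin, which enters the ER, folds around disulfide bonds and is cut in the secretory granule into insulin and C-peptide. Mice carry a pair of insulin genes: Ins2 is the counterpart of the single human gene, and Ins1 is a copy that arose in rodents through a retroposed transcript. Iapp encodes the precursor of amylin (islet amyloid polypeptide), a small hormone of the calcitonin family that beta cells store and release together with insulin.

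Exon counts per library ran from 15810830 to 27057617. Wfs1 RNA stood at 98.8 to 125 CPM (counts scaled to library size by the TMM method) in Wfs1KO libraries and at 156 to 190 CPM in WT libraries, so reads over its exons were fewer but not gone (log2 fold change -0.74, edgeR adjusted p = 5.05e-05). Which exons the allele removes is not given, so reads outside them may be included. Markers of beta cells other than insulin were detected in every library, and the hormone genes of the other islet cells were among the most abundant. Acinar enzyme genes, from the exocrine tissue around islets, took 1.11% to 7.07% of counts in Wfs1KO libraries and 3.32% to 7.05% in WT libraries. In bulk islets, fewer beta cells and less RNA per beta cell cannot be told apart.

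Ins1 (NM_008386) lies at chr19:52264297-52265009 on the plus strand, Ins2 (NM_001185084) at chr7:142678656-142679726 on the minus strand, and Iapp (NM_010491) at chr6:142298425-142303819 on the plus strand, all in mm10. Their exons overlapped no exon of another gene in GENCODE M21, although Iapp sits within the body of Slco1a5, an organic anion transporter gene on the other strand. The coding sequences of Ins1 (324 bases) and Ins2 (330 bases) were 90.9% identical, with 24 single-base differences and 6 bases that Ins1 lacks. The stretch around these 6 bases runs from the end of the insulin B chain through the C-peptide to the start of the A chain. It is shown because it is what tells reads of Ins1 and Ins2 apart in this part of the transcripts. Capitals mark the bases at which they differ, and the lines cover coding bases 155 to 274 of Ins1 (chr19:52264778-52264897) and 155 to 280 of Ins2 (chr7:142678766-142679379, a span that holds an intron which Ins1 does not have), from GENCODE M21 transcripts on GRCm38.
Ins1: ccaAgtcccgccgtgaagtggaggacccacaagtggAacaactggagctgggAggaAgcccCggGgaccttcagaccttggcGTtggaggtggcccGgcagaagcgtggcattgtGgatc
Ins2: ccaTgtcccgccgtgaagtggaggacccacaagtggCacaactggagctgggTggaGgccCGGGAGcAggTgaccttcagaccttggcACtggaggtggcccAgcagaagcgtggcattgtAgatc
The longest run of bases shared exactly by the transcripts of both genes was 56 bases. Of all windows of 50 bases, 0.691% of those in the Ins1 transcript (7 of 1013) and 1.39% of those in the Ins2 transcript (7 of 503) occurred in the other gene. Of windows of 75, 100 or 150 bases 0% did. The GENCODE transcripts searched have 1062 bases for Ins1 and 552 for Ins2, against 591 and 579 bases of counted exon. The percentages are therefore not those of the counted exons, and the difference between them reflects transcript length. Read length, and how reads that fit both genes were counted, are not given in the sources used here.

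Wfs1KO islets held less insulin RNA and slightly more amylin RNA than WT islets, and both insulin genes did not move by the same amount. Ins2 fell to 0.577 of its WT level, Ins1 to 0.752, and Iapp rose to 1.18 times its WT level. Each of the 3 genes had every Wfs1KO library outside the range of the WT libraries, and all 3 passed the test (edgeR's quasi-likelihood test, Benjamini-Hochberg adjusted p under 0.05 over all tested genes). Of all tested genes 18.9% passed, 8.49% lower and 10.4% higher in Wfs1KO, and 22.6% had ranges that did not overlap, 10.3% with Wfs1KO below WT and 12.3% with Wfs1KO above WT.

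Ins2, the most abundant transcript in all 8 libraries, stood at 67920, 75371, 63346 and 58155 CPM in Wfs1KO replicates 1 to 4, against 108681, 113631, 101134 and 135662 CPM in WT replicates 1 to 4. The highest Wfs1KO library lay well under the lowest WT library, and WT replicate 4 was the highest of all. The means were 66198 ± 7302 CPM in Wfs1KO and 114777 ± 14841 CPM in WT (SD, n = 4 each), giving -0.79 on the log2 scale (SE 0.10, 95% interval from -1.02 to -0.57, edgeR adjusted p = 1.44e-04). Only 135 of the 1335 genes that fell had a larger fall on the log2 scale. In replicates 3 and 4 alone the log2 fold change was -0.97 and did not pass (edgeR adjusted p = 0.0561), against -0.65 in replicates 1 and 2 alone (edgeR adjusted p = 0.0126).

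Ins1, the second most abundant gene in all 8 libraries, stood at 29330, 31075, 30341 and 26408 CPM in Wfs1KO replicates 1 to 4, against 38004, 33924, 37638 and 46243 CPM in WT replicates 1 to 4. The gap between the groups was narrow, since Wfs1KO replicate 2 and WT replicate 2 differed by a ratio of 0.916. The means were 29288 ± 2049 CPM in Wfs1KO and 38952 ± 5198 CPM in WT, giving -0.41 on the log2 scale (SE 0.10, 95% interval from -0.62 to -0.20, edgeR adjusted p = 0.00833). In replicates 1 and 2 alone the log2 fold change was -0.27 and did not pass (edgeR adjusted p = 0.273), against -0.57 in replicates 3 and 4 alone (edgeR adjusted p = 0.0193). Without both Wfs1KO replicates 3 and 4 it was -0.39 (edgeR adjusted p = 0.0581).

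Iapp stood at 23275, 25782, 23040 and 22399 CPM in Wfs1KO replicates 1 to 4, against 20060, 18922, 19685 and 21472 CPM in WT replicates 1 to 4. The lowest Wfs1KO library was only slightly above the highest WT library. The means were 23624 ± 1486 CPM in Wfs1KO and 20035 ± 1069 CPM in WT, giving 0.24 on the log2 scale (SE 0.07, 95% interval from 0.08 to 0.40, edgeR adjusted p = 0.0398). The call was close to the threshold. With the replicate number as a block the edgeR adjusted p was 0.0750, and without any 1 library other than WT replicate 4 it was 0.0593 to 0.119, while without WT replicate 4 it was 0.0243. In replicates 1 and 2 alone the log2 fold change was 0.31 (edgeR adjusted p = 0.172), and in replicates 3 and 4 alone it was 0.13 (edgeR adjusted p = 0.256).

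**Figure D1:**
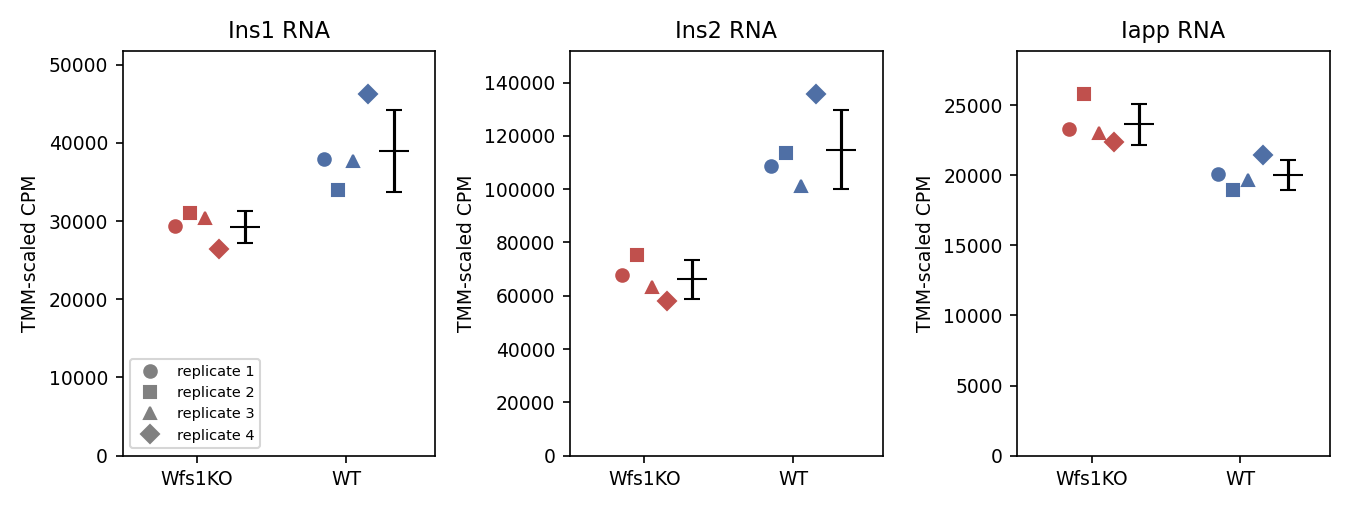
RNA level of Ins1, Ins2 and Iapp in each library, in TMM-scaled CPM on axes that start at 0, with Wfs1KO left of WT, 1 symbol per replicate number, and the mean and SD (n = 4) as a bar beside the points. Ins2 falls furthest (66198 against 114777 CPM), and Iapp is the gene whose Wfs1KO points lie above the WT points.

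Set beside WT libraries of the same replicate number, Wfs1KO libraries had Ins2 at ratios of 0.625, 0.663, 0.626 and 0.429 and Ins1 at ratios of 0.772, 0.916, 0.806 and 0.571. Iapp stood at ratios of 1.16, 1.36, 1.17 and 1.04. The pair numbered 4 gave the lowest ratio for each of the 3 genes and the pair numbered 2 the highest. Acinar enzyme genes took 3.18%, 3.12%, 1.11% and 7.07% of counts in Wfs1KO replicates 1 to 4, against 4.52%, 3.36%, 7.05% and 3.32% in WT. The acinar share was thus higher in Wfs1KO in the pair numbered 4 and lower in the pair numbered 3. The part of acinar RNA in the ratios of these pairs was not tested. With acinar markers left out of the library sizes the log2 fold changes over all libraries were -0.80 for Ins2, -0.42 for Ins1 and 0.23 for Iapp.

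Spread within a genotype differed between the genes. The coefficient of variation was 11% in Wfs1KO and 12.9% in WT for Ins2, 7.0% in Wfs1KO and 13.3% in WT for Ins1, and 6.29% in Wfs1KO and 5.34% in WT for Iapp. Once each genotype's mean was removed, the root mean square difference over the 8 libraries was 0.10 on the log2 scale between Ins1 and Ins2, 0.08 between Ins1 and Iapp and 0.10 between Ins2 and Iapp. WT replicate 4 was the highest WT library for all 3 genes, and Wfs1KO replicate 2 the highest Wfs1KO library for all 3.

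As a share of the library, without any scaling, Ins2 took 6.87% ± 0.875 of exon counts in Wfs1KO and 11.1% ± 1.43 in WT (SD, n = 4 each). Ins1 took 3.04% ± 0.289 in Wfs1KO and 3.75% ± 0.427 in WT, and Iapp took 2.45% ± 0.189 in Wfs1KO and 1.93% ± 0.0774 in WT. The 3 genes together took 12.7%, 13.7%, 12.4% and 10.6% in Wfs1KO replicates 1 to 4, against 16.2%, 16.8%, 14.9% and 19.2% in WT replicates 1 to 4. The shares of Ins1, of Ins2 and of both together were lower in every Wfs1KO library than in any WT library, and that of Iapp was higher. Each gave p = 0.0286 in a two-sided exact permutation test, the smallest that 4 against 4 samples can give, and 0.0286 after Benjamini-Hochberg adjustment over the 4 shares tested. This test takes the samples as unpaired. Permuting only within the 4 same-numbered pairs gave p = 0.125 for each share (two-sided exact permutation, 16 arrangements), the smallest p that 4 pairs can give, with 4 of 4 pairs in the same direction. The difference in the Ins1 share was -0.394 percentage points in replicates 1 and 2 alone, against -0.717 over all libraries. The widest 95% Wilson interval of a share in 1 library reached 0.0151 percentage points to each side, for counting error only.

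**Figure D2:**
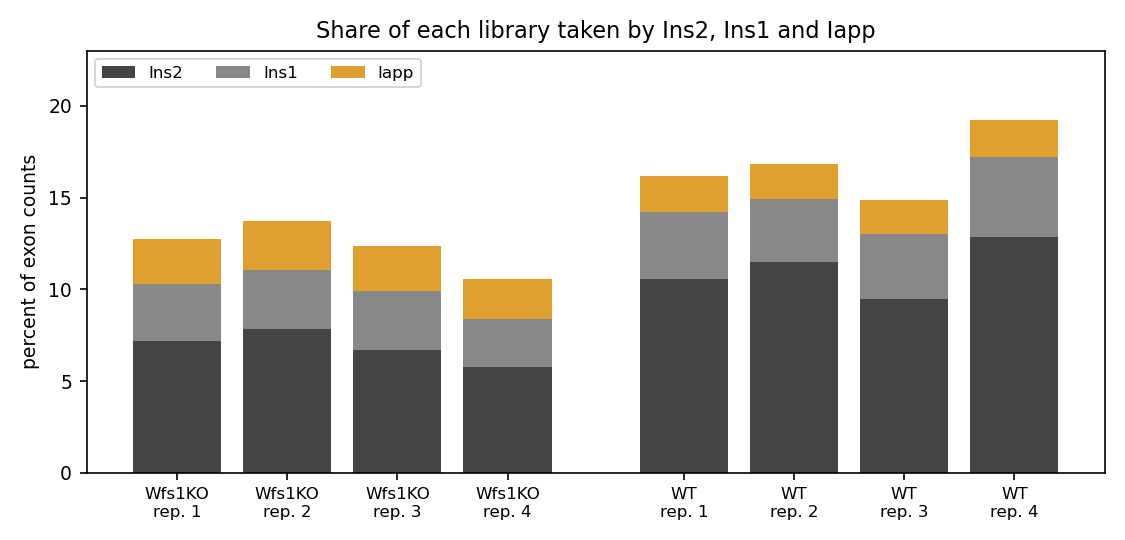
Percent of all exon counts taken by Ins2 (dark), Ins1 (grey) and Iapp (orange) in each library, stacked, with the 4 Wfs1KO libraries left of the 4 WT libraries. The stacks reach 10.6% to 13.7% in Wfs1KO and 14.9% to 19.2% in WT, while the Iapp part is wider in Wfs1KO.

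Ratios between genes within a library do not depend on how libraries are scaled, and the make-up of insulin and amylin RNA differed between the genotypes. Per kilobase of counted exon (591 bases for Ins1, 579 for Ins2 and 690 for Iapp), the Ins1:Ins2 ratio was 0.423, 0.404, 0.469 and 0.445 in Wfs1KO replicates 1 to 4, against 0.343, 0.292, 0.365 and 0.334 in WT replicates 1 to 4. Every Wfs1KO library had more Ins1 per Ins2 than any WT library. The difference in log2 ratio was 0.39 (SE 0.08), which makes the ratio 1.31-fold higher in Wfs1KO. The Iapp:Ins2 ratio per kilobase was 0.288, 0.287, 0.305 and 0.323 in Wfs1KO replicates 1 to 4, against 0.155, 0.140, 0.163 and 0.133 in WT replicates 1 to 4. These groups lay far apart, with a difference in log2 ratio of 1.03 (SE 0.08), or 2.04-fold. The Iapp:Ins1 ratio per kilobase was 0.692 ± 0.0338 in Wfs1KO and 0.444 ± 0.0335 in WT, a difference in log2 ratio of 0.64 (SE 0.07), or 1.56-fold.

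The same ratios were taken for hormones of other islet cells: glucagon of alpha cells (Gcg), somatostatin of delta cells (Sst) and pancreatic polypeptide of PP cells (Ppy). The difference in log2 ratio to Ins2 was 1.0 (SE 0.18) for Gcg, 1.17 (SE 0.10) for Sst and 1.0 (SE 0.18) for Ppy, beside 1.03 for Iapp. All 6 ratios were higher in every Wfs1KO library than in any WT library, each with p = 0.0286 in a two-sided exact permutation test and 0.0286 adjusted over the 6 ratios. Within the same-numbered pairs the exact permutation p was 0.125 for each ratio, the smallest that 4 pairs can give, and 4 of 4 pairs had the higher ratio in Wfs1KO. The difference between Iapp and these hormones was not tested. All of the ratios but Iapp:Ins1 share Ins2, and Iapp:Ins1 shares its genes with Ins1:Ins2 and Iapp:Ins2. The ratios are therefore not independent of one another.

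**Figure D3:**
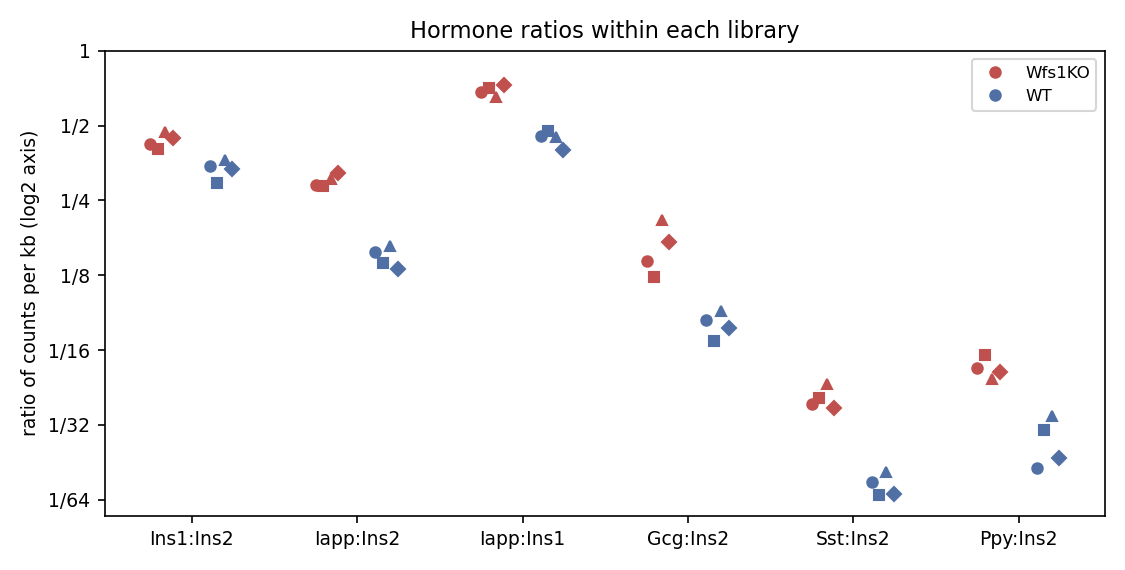
Ratio of counts per kilobase between hormone genes within each library, on a log2 axis, with Wfs1KO (red) left of WT (blue) for each of the 6 ratios and 1 symbol per replicate number. The groups do not overlap for any ratio, and Iapp:Ins2 lies at 0.287 to 0.323 in Wfs1KO and at 0.133 to 0.163 in WT.

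Of 5 genes for other islet hormones Sst rose, with a log2 fold change of 0.39 (SE 0.10, edgeR adjusted p = 0.0172), and Gcg (0.22, edgeR adjusted p = 0.243), Ppy (0.21, edgeR adjusted p = 0.422), the peptide YY gene Pyy (0.32, edgeR adjusted p = 0.0883) and the ghrelin gene Ghrl (0.75, edgeR adjusted p = 0.0723) did not pass. Of all tested genes 10.4% rose. Ghrl passed with the replicate number as a block (edgeR adjusted p = 0.00462), and without a block with DESeq2 (adjusted p = 0.0385) and limma-voom (adjusted p = 0.0356). The call of Sst was lost without Wfs1KO replicate 2 or 3 or WT replicate 1 (edgeR adjusted p up to 0.0618). The groups of Sst overlapped, with Wfs1KO replicate 4 at 2187 CPM and WT libraries at 1905 to 2289 CPM. Gcg stood at 18057, 17396, 24622 and 18501 CPM in Wfs1KO replicates 1 to 4, against 16792, 14502, 17022 and 19377 CPM in WT replicates 1 to 4, so its groups overlapped. By raw counts Iapp ranked 3 in 7 of 8 libraries and 4 in Wfs1KO replicate 3, where Gcg stood above it.

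Among the 20 most abundant tested genes by mean CPM, Ins2, Ins1 and the imprinted gene Peg3 (-0.59) fell, Iapp and Sst rose, and 15 did not pass. Of all tested genes 8.49% fell and 10.4% rose, so these counts are not far from the shares over all genes. The gene of the granule protein chromogranin A, Chga, ranked 5 in abundance, had a log2 fold change of -0.17 (edgeR adjusted p = 0.269).

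Of 20 genes for transcription factors that bind or control the insulin promoter 19 were tested, and 9 fell, 0 rose and 10 did not pass, against 8.49% of all tested genes that fell. Their median log2 fold change was -0.18, against 0.01 over all tested genes. Mafa, which binds the insulin promoter in mature beta cells, fell by 2.38 on the log2 scale (23.6 CPM in Wfs1KO, 122 CPM in WT), and Pdx1, which binds its TAAT elements, fell by 0.84 (54.2 CPM in Wfs1KO, 96.7 CPM in WT). Foxa2 (-0.40) and Neurod1 (-0.41), which binds E boxes with E2A proteins, fell by about as much as Ins1 (-0.41). The E2A gene Tcf3 had a log2 fold change of 0.01 (edgeR adjusted p = 0.945) and the islet factor gene Isl1 one of -0.09 (edgeR adjusted p = 0.297). Both were chosen after their values were seen.

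Windows before the annotated starts of Ins1 and Iapp are shown because Pdx1, Neurod1 and Mafa, whose RNA fell, are known regulators of islet hormone genes. RefSeq promoter windows (GRCm38.p6) were at hand for these 2 genes. The lines give the 250 bases before the annotated RefSeq start of Ins1 (chr19:52264047-52264296, plus strand) and of Iapp (chr6:142298175-142298424, plus strand). Whether transcription in islets begins at these annotated starts was not tested, so promoter elements downstream of a window may be left out. Capitals mark TAAT (the core that homeodomain proteins bind), CANNTG (the E box) and GCTGA (the core of a Maf half-site), each searched on both strands.
Ins1: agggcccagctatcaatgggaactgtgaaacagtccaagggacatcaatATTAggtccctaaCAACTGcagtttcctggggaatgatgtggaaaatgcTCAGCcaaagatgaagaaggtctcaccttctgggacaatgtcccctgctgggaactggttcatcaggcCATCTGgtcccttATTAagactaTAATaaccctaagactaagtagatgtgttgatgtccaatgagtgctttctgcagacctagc
Iapp: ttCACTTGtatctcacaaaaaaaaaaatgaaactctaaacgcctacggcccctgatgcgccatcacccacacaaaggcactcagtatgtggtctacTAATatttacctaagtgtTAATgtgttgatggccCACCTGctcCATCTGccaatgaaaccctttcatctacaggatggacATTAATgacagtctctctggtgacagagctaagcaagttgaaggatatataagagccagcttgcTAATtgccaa
Iapp held 5 TAAT matches, 2 of which overlap, and Ins1 held 3. Of 32851 promoter windows of this length 54.9% held at least 1 TAAT, 17.3% held 3 or more and 5.54% held 5 or more. CANNTG matched 3 times in Iapp and 2 times in Ins1, and 66.2% of windows held it at least once. GCTGA matched 1 time in Ins1 and 0 times in Iapp, against 46.8% of windows with at least 1 match. A match is a description of the letters in the window and does not show that a factor binds there. The counts cover only these windows, so they do not compare the whole promoters of Ins1 and Iapp.

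Of 5 genes of proteins known to bind insulin mRNA (Ptbp1, Elavl1, Elavl4, Pabpc1 and Tial1) 0 rose and 0 fell with edgeR. Of all tested genes 18.9% passed, and for so few genes a count of 0 is near that share. With edgeR 1 had an unadjusted p under 0.05, and 0 passed with DESeq2 and 1 with limma-voom. Their log2 fold changes lay between -0.17 and 0.10. Elavl4, whose product HuD binds Ins2 mRNA, had the lowest (edgeR adjusted p = 0.0555), and without Wfs1KO replicate 4 it passed (0.0338).

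Most genes that fold proinsulin in the ER rose in Wfs1KO. Of 16 genes 12 rose, 1 fell and 3 did not pass (median log2 fold change 0.50), against 10.4% of all tested genes that rose. The chaperone cofactor gene Sdf2l1 rose by 1.0 on the log2 scale, the co-chaperone gene Dnajc3 by 0.66 and the disulfide isomerase gene Pdia6 by 0.62. The gene that fell was Ero1lb, which encodes the ER oxidase ERO1-beta of beta cells, at -0.81 (SE 0.07, edgeR adjusted p = 6.53e-06). Its levels were 693 CPM in Wfs1KO and 1218 CPM in WT, and its log2 fold change was close to that of Ins2 (-0.79).

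Of 6 prohormone processing genes 1 fell and 5 did not pass, a share near the 8.49% of all tested genes that fell. Pcsk1, the convertase that starts proinsulin cleavage, fell by 0.66 on the log2 scale (250 CPM in Wfs1KO, 395 CPM in WT). The second convertase gene Pcsk2 (-0.21, edgeR adjusted p = 0.0737), the carboxypeptidase gene Cpe (-0.08) and Pam (0.22, edgeR adjusted p = 0.0698), whose product amidates amylin, did not pass. The convertase inhibitor gene Pcsk1n and the chaperone gene Scg5 stood near 0 (-0.0023 and 0.04). With DESeq2 Pcsk2 passed as lower (adjusted p = 0.00534) and Pam as higher (adjusted p = 0.0384), and Pam also passed with the replicate block (edgeR adjusted p = 0.0435). Of 8 granule storage genes 1 fell and 7 did not pass, which is also near that share. It was Slc30a8 (-1.04, SE 0.07), the zinc transporter that fills insulin granules.

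The calcitonin family, to which amylin belongs, held larger changes at far lower levels. Of 9 genes of the family and of the amylin receptor 7 were tested, and 4 rose, 0 fell and 3 did not pass, against 10.4% of all tested genes that rose and 8.49% that fell. The adrenomedullin 2 gene Adm2 (18.2 CPM in Wfs1KO, 1.17 CPM in WT) and the adrenomedullin gene Adm (1.51 CPM in Wfs1KO, 0.362 CPM in WT) rose, as did Ramp3 (0.68) and Calcrl (0.32), which encode receptor subunits. Calcr, the calcitonin receptor that forms the core of amylin receptors, had at most 11 counts in any library and was not tested. Endothelial markers, 10 of 10 of which rose (summed 861 to 1020 CPM in Wfs1KO and 642 to 724 CPM in WT), moved with Ramp3 and Calcrl, and their part in these changes was not tested.

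In the insulin family, Igf2, the neighbour of Ins2 on chromosome 7, fell (4.87 CPM in Wfs1KO, 8.31 CPM in WT, log2 fold change -0.78, SE 0.18). The relaxin and insulin-like genes Rln1, Rln3, Insl5 and Insl6 did not reach the filter. The receptor genes Insr (0.0090), Igf1r (-0.02) and Igf2r (0.15) did not pass. Among peptidase genes, Ide, which encodes the insulin-degrading enzyme that also cleaves amylin, rose (0.40), and the gene of the aspartic protease BACE2, Bace2 (-0.56), and Ece1 (-0.36) fell, while Mme (0.06) and Nrd1 (0.05) did not pass.

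**Figure D4:**
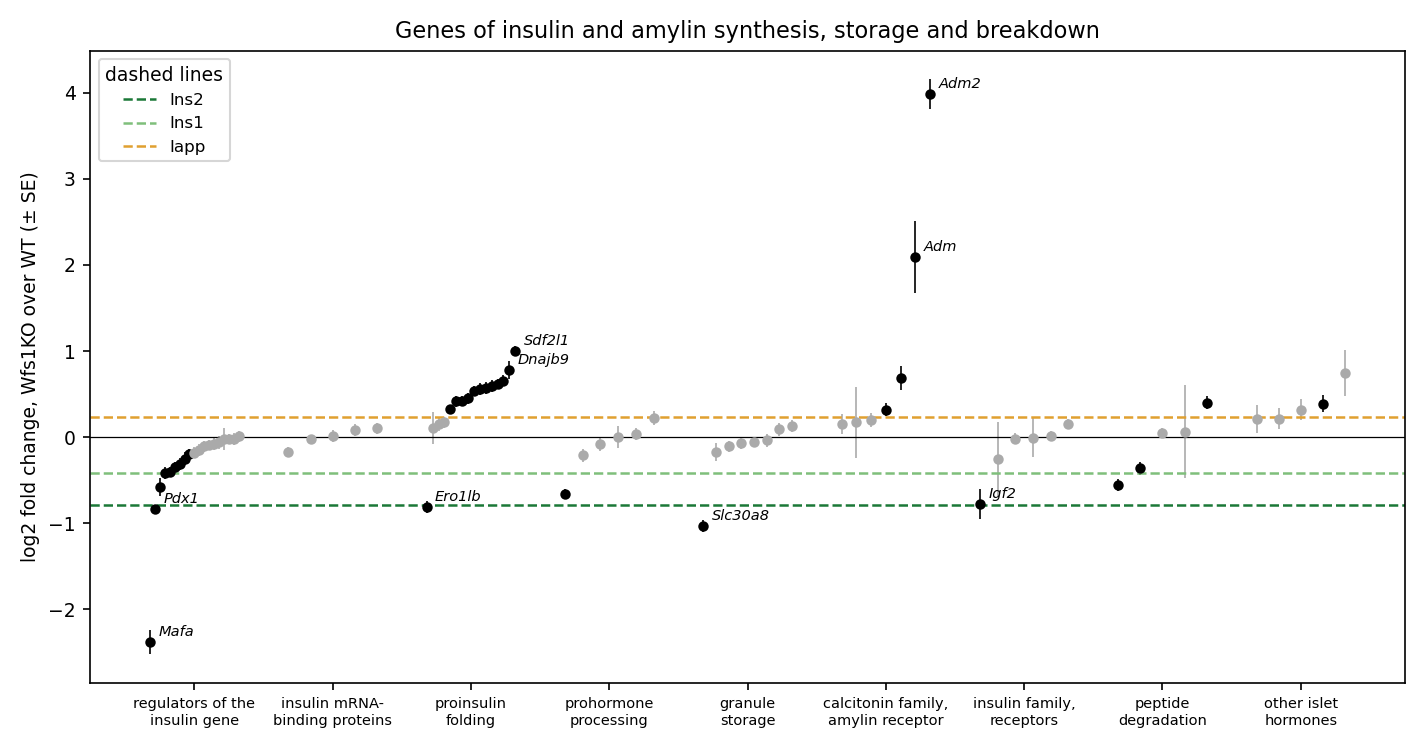
Log2 fold change of Wfs1KO over WT, with its standard error, for each tested gene of 9 lists around insulin and amylin. Black points passed the edgeR test and grey points did not, and dashed lines mark Ins2 (-0.79), Ins1 (-0.41) and Iapp (0.24). Regulators of the insulin gene lie at or under 0.01, and 15 of 16 folding genes lie above 0.

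Markers of other cells were read beside these results and against the 8.49% of all tested genes that fell and the 10.4% that rose. Of 13 beta cell markers 12 fell and 1 did not pass (median -0.85), and their summed level was 3555 to 3936 CPM in Wfs1KO and 5592 to 6480 CPM in WT. 4 of them are also regulators or storage genes described above. Of 7 tested alpha cell markers 1 rose and 1 fell, and 4 of 4 delta cell markers rose. Of 13 acinar and 8 macrophage markers 0 rose and 0 fell with edgeR (0 of either list had an unadjusted p under 0.05, and 0 passed with DESeq2 or limma-voom), while 1 of 6 ductal and 3 of 9 stellate cell markers rose. The counts for alpha and ductal markers are near the share over all tested genes. No marker in these lists was at 0 in all libraries, and the part of these cells in the change of the 3 genes was not tested, apart from the fits with acinar markers.

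The genes with the most similar profiles over the 8 libraries, by the smallest root mean square difference in centred log2 CPM among 9888 genes with a mean of at least 10 CPM, were different for each member. For Ins2 they were Fkbp1b (0.10), Jakmip1 (0.11), Akr1c12 (0.12), Atp4a (0.12) and Cdh8 (0.12). For Ins1 they were Coa7 (0.06), the fumarase gene Fh1 (0.07), Upp1 (0.07), Stard4 (0.07) and H2afy2 (0.07). For Iapp they were the translation factor gene Eif2b2 (0.03), Clpp (0.03), Rack1 (0.03), Rpl14-ps1 (0.04) and Apmap (0.04). The same distance was 0.22 between Ins1 and Ins2, 0.33 between Ins1 and Iapp and 0.52 between Ins2 and Iapp. No member was among the nearest genes of another. This distance includes the difference between genotypes, so the unlike fold changes of the members already set them apart. Once each genotype's mean was removed, Iapp ranked 203 in nearness to Ins2 and 209 to Ins1 among 9888 genes. Ins2 then ranked 785 in nearness to Ins1.

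In the authors' deposited table the log2 fold changes of Wfs1KO over WT were -0.77 for Ins2, -0.40 for Ins1 and 0.22 for Iapp. The adjusted p-values of the authors' deposited table were 4.47e-17 for Ins2, 1.57e-05 for Ins1 and 4.87e-04 for Iapp.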

How the data were processed

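The submitters' processing notes name bcl2fastq, the aligner STAR (2.6.0a), the build mm10 and HOMER (4.11.1). The deposited counts are, per the file headers, raw reads in exons of RefSeq genes, with no strand option. The authors also deposited a comparison whose log2 fold changes, p-values and adjusted p-values come from HOMER with DESeq2, per the file headers and processing notes. The log2 values per library deposited there were not used.

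Counts were tested with edgeR 4.0.16 (R 4.3.3): filterByExpr (minimum count 10, minimum total count 15), TMM, and the quasi-likelihood F-test with robust=TRUE, over all 8 libraries. The code was also run on counts simulated from this same fit, which cannot show how the test performs on the real data. CPM use TMM-scaled library sizes. SE is the fold change over the root of F. Ratios and shares were tested by two-sided exact permutation over 70 arrangements, which takes samples as unpaired, and also within the 4 same-numbered pairs (16 arrangements, chosen after seeing the data). The SE of a ratio's difference combines both groups' SDs.

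Replicate numbers come from the labels. Deviations of same-numbered libraries correlated across genes at 0.153, 0.443, 0.269 and 0.188, each over 0.1. Libraries of different numbers were not compared in this way, so these correlations cannot show that the numbers mark pairs. The labels do not say what a number marks. The numbers were therefore used as pairs only in alternatives to the main tests. A fit with the number as a block was an alternative, with DESeq2 1.42.0, limma 3.58.1 and other scalings, filters and sample sets. The first principal component (37.9% of variance) set replicates 1 and 2 apart from the other libraries, in Wfs1KO as in WT.

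Members and gene lists were chosen with earlier results of these data known. Named genes were the 3 members, up to 4 called genes per list by adjusted p, all genes of lists of at most 6, and 5 nearest profiles per member. Others named in counts were chosen after their values were seen.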

Additional observations from a re-analysis of the deposited data

How the results depend on the processing

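The main test called 2970 genes (55.1% higher in Wfs1KO, 44.9% lower). With total counts and no TMM it called 3883 (81.7% higher, 18.3% lower), the median of all genes moved by 0.10 (log2), and the members stood at -0.31 (Ins1), -0.69 (Ins2) and 0.34 (Iapp). Calls numbered 1846 in replicates 3 and 4 alone, 1744 at an adjusted p under 0.01, and 2387 to 2734 without 1 library. Ins2 kept its direction throughout and its call except in replicates 3 and 4 alone (-0.97, edgeR adjusted p = 0.0561), with -0.86 to -0.70 without 1 library. Ins1 lost its call in replicates 1 and 2 alone (-0.27) and without Wfs1KO replicates 3 and 4 (-0.39), with -0.47 to -0.32 without 1 library. Iapp stayed positive and lost its call with DESeq2 size factors (0.22), with the members out of library sizes (0.23), with no filter (0.24), with an acinar covariate (0.23), in replicates 1 and 2 alone (0.31), in replicates 3 and 4 alone (0.13), without Wfs1KO replicates 3 and 4 (0.27) and at the threshold of 0.01 (0.24), with 0.19 to 0.27 without 1 library. The cause of these losses was not tested beyond the smaller sample sets and the stricter threshold. With the replicate block the log2 fold changes were -0.40 for Ins1 (edgeR adjusted p = 0.0203), -0.79 for Ins2 (4.13e-04) and 0.24 for Iapp (0.0750), and among the named genes of the lists the block otherwise changed the calls of Pam and Ghrl. It also made 2 alpha cell markers and 0 ductal markers higher. The ratios and shares kept their direction in every sample set tried and moved by less than the SD pooled over both genotypes. Some moves exceeded the SD of 1 genotype. Without Wfs1KO replicates 3 and 4, Gcg:Ins2 was 0.75 and the Iapp share 0.635. In replicates 1 and 2 alone Gcg:Ins2 was 0.82, Ppy:Ins2 1.17, the Ins1 share -0.394 and the Iapp share 0.640. In replicates 3 and 4 alone Gcg:Ins2 was 1.18, Ppy:Ins2 0.83, the Ins1 share -1.04 and the Iapp share 0.389. Permutation within the same-numbered pairs, chosen after seeing the data, cannot go below p = 0.125, so it cannot pass for any ratio or share and says nothing about their stability. Its mean paired differences in log2 ratio were 0.39 (Ins1:Ins2), 1.03 (Iapp:Ins2), 0.64 (Iapp:Ins1), 1.0 (Gcg:Ins2), 1.17 (Sst:Ins2) and 1.0 (Ppy:Ins2), and in shares -0.717 (Ins1), -4.22 (Ins2), 0.514 (Iapp) and -4.94 (both insulin genes) percentage points.

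Single genes were followed through the alternatives only for the 3 members, the named genes of the lists and the nearest profiles. Among those of them that did not pass, 9 changed sign under an alternative, and the cause was not tested. For 8 of them the main value was within 0.10 of 0 on the log2 scale, and Ppy was 0.21. Without TMM the values were 0.078 for Ptbp1, 0.019 for Cpe and 0.11 for Pcsk1n. Pcsk1n was also 0.0023 with upper-quartile scaling, 6.27e-04 with no filter, 0.0016 with the replicate block and 0.0089 with a block of replicate pairs. In replicates 1 and 2 alone Pcsk1n was 0.25, Tial1 -0.15, Mme -0.15 and Nrd1 -0.037, and in replicates 3 and 4 alone Scg5 was -0.046 and Ppy -0.13. Without Wfs1KO replicates 3 and 4 the values were -0.027 for Pabpc1, -0.048 for Tial1, 0.041 for Pcsk1n and -0.054 for Nrd1. Without 1 library the ranges were -0.032 to 0.058 for Tial1, -0.083 to 0.093 for Pcsk1n, -0.13 to 0.47 for Mme and -0.00014 to 0.077 for Nrd1.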

Other observations

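The 3 genes were also set against the summed level of 13 other beta cell markers, a comparison chosen after the values were seen and given without a test. Per unit of that sum Ins2 stood at 17.5 ± 2.15 in Wfs1KO and 19.2 ± 1.40 in WT, Ins1 at 7.76 ± 0.710 in Wfs1KO and 6.52 ± 0.531 in WT, and Iapp at 6.25 ± 0.431 in Wfs1KO and 3.37 ± 0.105 in WT (SD, n = 4 each, CPM per summed marker CPM). The groups overlapped for Ins2 (14.8 to 19.4 in Wfs1KO, 18.1 to 20.9 in WT) and for Ins1 (6.71 to 8.25 in Wfs1KO, 5.90 to 7.14 in WT), and did not for Iapp (5.69 to 6.63 in Wfs1KO, 3.29 to 3.52 in WT). The sum itself was 0.635 of its WT mean in Wfs1KO. Its largest part was G6pc2, the marker that did not pass, with 1847 of 3782 CPM in Wfs1KO and 2139 of 5958 CPM in WT. The sum thus weights abundant markers most, while the median log2 fold change of the 13 was -0.85.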
